A study of Homo sapiens with 18 samples.

Results

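The human collagen genes were compared between Ewing sarcoma cells with and without knockdown of the fusion oncogene EWSR1::FLI1. A collagen gene was any row whose gene symbol had the form COL, a number, A and a number in all 3 gene tables, which gave 44 genes of 58381 rows. The rule used names only and no measured value. mRNA libraries were sequenced from TC-32, TC-71 and A673, established cell lines of Ewing sarcoma that carry the fusion. In each line 3 libraries came from cells transfected with siNeg, a negative control siRNA, and 3 from cells transfected with siFLI1, an siRNA against FLI1, each at 20 nM, so there were 6 groups of 3 libraries. All groups were reverse transfected with the same lipid reagent, TC-32 and TC-71 grew in RPMI and A673 in DMEM, and the column names of TC-32 and TC-71 give 48 hours, while the time for A673 was not given in the sources used here. Every knockdown used the same single siRNA. Nothing in the labels says that replicates were separate cultures, so p-values measure the spread between these libraries, which may be technical.

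Collagens are secreted or membrane proteins built from chains wound into a triple helix, and each chain has its own gene. Fibrillar collagens (types I, II, III, V, XI, XXIV and XXVII) form banded fibres, type IV forms the network of basement membranes, type VI forms beaded filaments around cells, and FACIT collagens, the fibril-associated collagens with interrupted triple helices, decorate fibrils. EWSR1::FLI1 joins part of the RNA-binding protein EWSR1 to the DNA-binding domain of the ETS transcription factor FLI1. It activates some genes and represses others, and mesenchymal and matrix genes are known among those it represses.

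The libraries of TC-32 held 24102487 to 33669271 counts, those of TC-71 19685354 to 37234528 and those of A673 114564479 to 120993595. FLI1 levels, as counts scaled to library size by TMM (CPM), were 45.3, 47.7 and 42.8 CPM with siNeg and 21.7, 22.0 and 22.6 CPM with siFLI1 in TC-32, 52.0, 52.8 and 47.95 CPM with siNeg and 17.2, 17.7 and 19.9 CPM with siFLI1 in TC-71, and 76.5, 76.8 and 75.4 CPM with siNeg and 18.3, 17.9 and 17.6 CPM with siFLI1 in A673. The FLI1 row does not separate the fusion from FLI1 itself. FLI1 fell in each line, by 2.05-fold, 2.79-fold and 4.25-fold, with log2 fold changes of -1.03 ± 0.064, -1.47 ± 0.068 and -2.09 ± 0.042 (SE; edgeR quasi-likelihood test, adjusted p 1.8e-13, 8.9e-18 and 2.0e-16). The summed level of 8 Ewing sarcoma markers ranged from 1866 to 2580 CPM with siNeg and from 341 to 870.0 CPM with siFLI1 over the lines, and CD99 among them is listed at 0 in all 6 TC-71 libraries, whose table was counted with another tool, and whether the gene is silent there was not tested. Markers of other cells were read beside the collagens: MYOD1, MYOG, PTPRC and CD3E stayed at group means of at most 0.065 CPM. DES, a muscle marker, rose from a mean of 0.312 to 5.94 CPM in TC-32 and from 0.0139 to 0.418 CPM in A673, and CD68, a macrophage marker, from 1.90 to 7.96 CPM and from 6.83 to 12.2 CPM (adjusted p 1.4e-14, 2.8e-07, 1.3e-09 and 1.0e-07, edgeR), while 81.6% of the exon bases of CD68 overlap ENSG00000264772 on the same strand. Neither passed the filter in TC-71, where the means with siNeg and siFLI1 were 0 and 0.0844 CPM for DES and 0.0507 and 0.0797 CPM for CD68. The summed muscle, endothelial and epithelial lists reached at most 6.92, 2.89 and 5.41 CPM. These sums mix changes in both directions. CDH5 rose and PECAM1 fell in TC-32 and A673, VWF rose in A673, and in TC-32 CDH1 rose and KRT20 fell. All 6 fibroblast markers had more than 3 counts in some library of every group but TC-32 siNeg, where 4 had. PDGFRA did not pass the filter in TC-71, and THY1 fell in TC-71 and A673. Of the markers tested, 6 of 6 rose in TC-32, 4 of 5 in TC-71 and 4 of 6 in A673 (all genes 41.3%, 36.8% and 35.6%). Their summed level went from 121–125 to 327–349 CPM in TC-32, from 68.0–73.1 to 244–255 CPM in TC-71 and from 178–185 to 181–212 CPM in A673, and the part of these markers in the collagen results was not tested. In bulk samples such as these, a change in the share of cells of one kind and a change of RNA per cell cannot be told apart.

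With siFLI1 most collagen genes rose in every line. In TC-32, 35 collagen genes passed the filter on low counts and 31 of them rose, 3 fell and 1 was not called at an adjusted p under 0.05, beside 41.3% higher, 40.1% lower and 81.4% in either direction among all 16227 genes tested. In TC-71, 27 of 32 rose, 3 fell and 2 were not called, beside 36.8% higher, 35% lower and 71.9% in either direction among 17085 genes. In A673, 33 of 37 rose, 1 fell and 3 were not called, beside 35.6% higher, 35.4% lower and 71% in either direction among 18444 genes. The collagen shares called higher were thus 88.6%, 84.4% and 89.2% of those tested. The siNeg and siFLI1 libraries did not overlap for 34 of the 35 in TC-32 (all genes 82.6%), 29 of the 32 in TC-71 (73.8%) and 35 of the 37 in A673 (73.6%). A rise of at least 2-fold was found for 29, 23 and 27 collagen genes, where 22%, 14.1% and 13.3% of all tested genes rose that much, and a fall of at least 2-fold for 1 in each line (all genes 15.6%, 9.38% and 9.87%). The median log2 fold change of the tested collagen genes was 3.31 for TC-32, 1.87 for TC-71 and 2.15 for A673, and the medians of all tested genes were 0.022, 0.018 and -0.0066. A gene that is silent in siNeg cells enters the test only if it is present with siFLI1, so the counts over tested members are descriptions.

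Of the 26 collagen genes tested in all 3 lines, 19 rose in all 3 (73.1%, beside 18.9% of the 14233 genes tested in all lines) and none fell in all 3 (19% of all genes), and 13 rose at least 2-fold in each line (50%, beside 5%; at least 2-fold lower in each, 0 collagen genes, beside 2.76%). These 13 were COL1A1, COL1A2, COL3A1, COL5A1, COL5A2, COL5A3, COL24A1, COL12A1, COL6A1, COL6A2, COL6A3, COL18A1 and COL7A1. COL22A1, COL6A5, COL10A1 and COL23A1 were tested in no line, with no more than 12 counts in any library. The other 14 genes were tested in 1 or 2 lines.

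**Figure D1:**
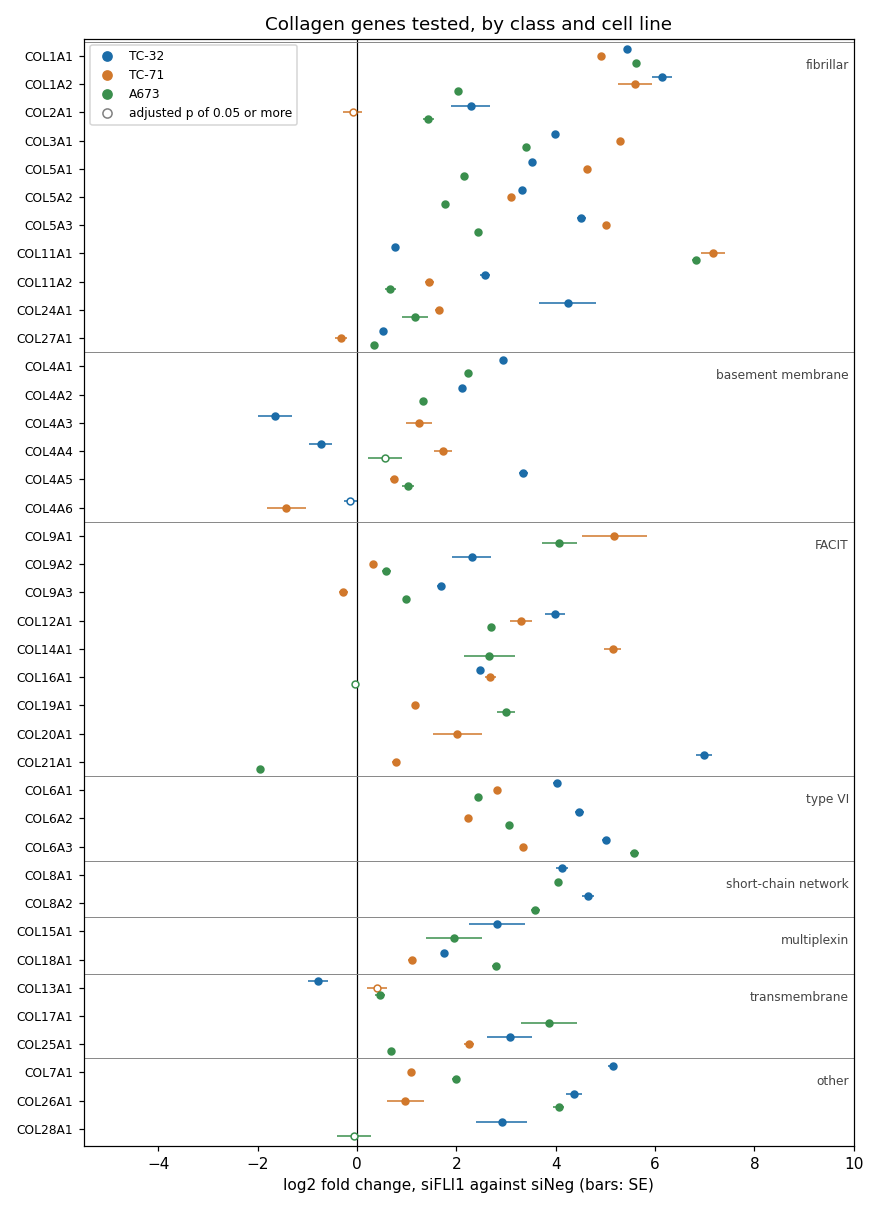
Log2 fold change of siFLI1 against siNeg (x axis, log2 units) for each collagen gene tested, with its standard error, grouped by class; colours mark the 3 lines and open circles an adjusted p of 0.05 or more. Most points lie to the right of 0, type VI genes between 2.23 and 5.58, and few genes lie to the left; COL6A6 is left out because its siNeg libraries all had 0 counts.

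Collagen transcripts took up a larger share of every siFLI1 library. In TC-32 the share of the total count that fell on the 44 genes was 0.189% ± 0.00360 (SD, n = 3) with siNeg and 2.26% ± 0.105 with siFLI1. The corresponding shares were 0.0957% ± 0.00385 and 1.18% ± 0.0121 in TC-71 and 0.270% ± 0.00377 and 1.25% ± 0.0809 in A673. The lowest siFLI1 library, at 1.16%, lay above the highest siNeg library, at 0.273%, over all lines, and the 3 replicates of each group lay close together. Fibrillar genes made up 71.8% ± 0.839, 54.2% ± 0.618 and 68.7% ± 0.169 of the collagen counts with siNeg and 80.7% ± 0.358, 88.3% ± 0.318 and 81.8% ± 0.209 with siFLI1, in the order TC-32, TC-71 and A673. FACIT genes made up 23.1% ± 0.264 of the collagen counts in TC-71 with siNeg and 2.99% ± 0.0706 with siFLI1, while their share of the total count was 0.0221% ± 9.13e-04 and 0.0352% ± 6.78e-04. Shares of a sum were not tested, and long genes weigh more in them.

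**Figure D2:**
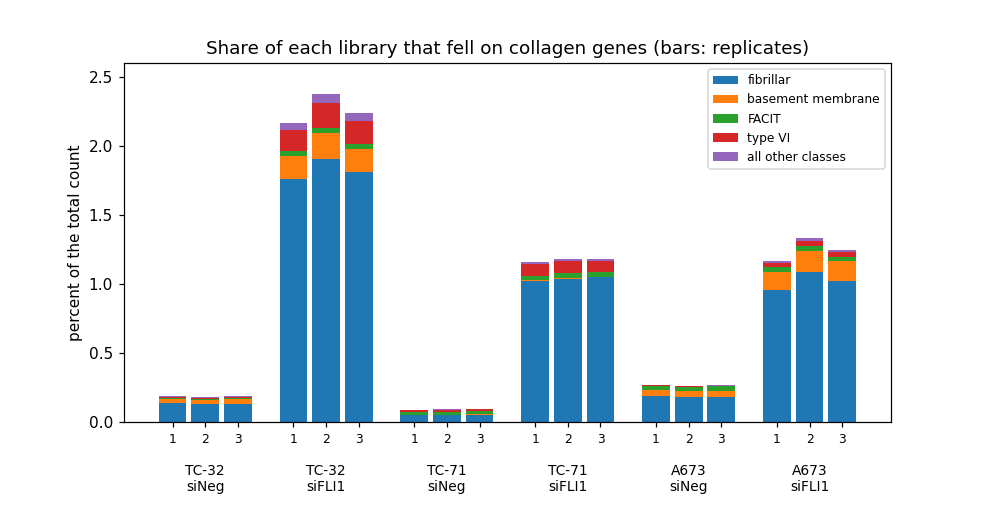
Percent of each library's total count (y axis) that fell on collagen genes, stacked by class, 1 bar per library; bars are numbered by replicate within the 6 groups. The siNeg bars reach 0.273% at most and the siFLI1 bars lie between 1.16% and 2.38%, and fibrillar genes form the bulk of every siFLI1 bar.

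Compared per length, as CPM per kilobase of exon (RPKM), the most abundant collagen transcript differed between the lines. COL3A1, which encodes the chain of type III collagen, led in TC-32 with 87.1 ± 3.03 RPKM (SD, n = 3) with siNeg and 1382 ± 52.0 RPKM with siFLI1, or 39.7% ± 1.28 and 49.7% ± 1.13 of the summed collagen RPKM. In TC-71 with siNeg, COL9A2, a chain of the cartilage FACIT collagen type IX, and COL5A2 led together at 34.8 ± 1.15 and 34.6 ± 1.07 RPKM, a difference within the spread of the replicates. That tie rests on exon lengths of 4215 and 7319 bases. With the lengths of the longest transcripts, 2887 and 6829 bases, COL9A2 lay above COL5A2. With siFLI1, COL3A1 led in TC-71 at 676 ± 9.97 RPKM, followed by COL5A2 at 296 ± 8.33 and COL1A1 at 277 ± 4.19 RPKM. The order of COL5A2 and COL1A1 depended on the lengths used. With longest-transcript lengths COL5A1 was 0.205 of COL5A2 and 0.154 of COL1A1, so COL1A1 then lay above COL5A2. A673 was led by COL1A2 with siNeg, at 80.1 ± 1.77 RPKM, and with siFLI1 COL1A2 (327 ± 17.8 RPKM) was followed by COL3A1 (308 ± 15.9 RPKM). Their ranges over libraries overlapped, but within each library COL3A1 was the lower, at 0.943 to 0.948 of COL1A2, or 0.644 ± 0.00229 with longest-transcript lengths. With those lengths COL1A1 in A673 with siFLI1 was 0.674 ± 0.0297 of COL1A2, a mean above that of COL3A1. Which of COL3A1 and COL1A1 came second there thus depended on the lengths used. The tables of the lines were quantified separately, so levels set across lines carry that limit.

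All 11 fibrillar genes passed the filter in every line, and all 11 rose in TC-32 (all genes 41.3%) and A673 (35.6%) and 9 in TC-71 (36.8%). The median log2 fold changes were 3.52 for TC-32, 4.63 for TC-71 and 2.03 for A673. The exceptions were in TC-71, where COL27A1 fell and COL2A1, the gene of cartilage collagen type II and named after its values were seen, was not called (log2 fold change -0.09 ± 0.19, adjusted p 0.664, edgeR), while it rose by 2.29 and 1.43 in the others. COL1A1 (ENSG00000108821, chr17:50184101-50201632 in GRCh38), the more abundant chain of type I collagen in most tissues, had 79.0, 75.0 and 79.2 CPM with siNeg and 3053, 3720 and 3378 CPM with siFLI1 in TC-32. It had 80.2, 83.7 and 83.4 CPM with siNeg and 2478, 2538 and 2469 CPM with siFLI1 in TC-71. In A673 COL1A1 had 48.8, 47.3 and 47.7 CPM with siNeg and 2113, 2573 and 2366 CPM with siFLI1. The groups did not overlap in any line, and the log2 fold changes were 5.44 ± 0.071, 4.92 ± 0.046 and 5.62 ± 0.065 (SE; adjusted p 8.2e-17, 1.6e-34 and 8.4e-19, edgeR). The rise was smaller in TC-71, by 0.52 ± 0.086 log2 units against TC-32 and 0.67 ± 0.084 against A673 (adjusted p 1.6e-05 and 3.4e-07, edgeR interaction).

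COL1A2, the partner chain of COL1A1 in type I collagen, was named here after its values were seen. It was nearly silent in TC-32 and TC-71 and abundant in A673. TC-32 had 4, 3 and 7 counts with siNeg and 360, 426 and 423 counts with siFLI1, or 0.167, 0.113 and 0.295 CPM with siNeg and 13.8, 12.7 and 14.3 CPM with siFLI1. TC-71 had 2, 1 and 2 counts with siNeg and 81, 82 and 139 counts with siFLI1. A673 had 881, 844 and 872 CPM with siNeg and 3328, 3711 and 3552 CPM with siFLI1, so its control level lay above the knockdown level of the other lines. The log2 fold change of COL1A2 was 6.13 ± 0.20 in TC-32 and 2.03 ± 0.041 in A673 (adjusted p 4.7e-19 and 2.0e-16, edgeR). For TC-71, where the siNeg libraries had 1 or 2 counts, the ratio of summed counts per total was 51.6 with a 95% exact interval from 21.9 to 160.0 for counting error only, and the fitted change was 5.60 ± 0.35 (adjusted p 7.5e-15).

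COL3A1 (chr2:188974373-189012746), the chain of type III collagen of soft tissues, had 602, 598 and 565 CPM with siNeg and 9061, 9733 and 9218 CPM with siFLI1 in TC-32. It had 119, 109 and 123 CPM with siNeg and 4526, 4530 and 4645 CPM with siFLI1 in TC-71 and 203, 191 and 198 CPM with siNeg and 1973, 2187 and 2092 CPM with siFLI1 in A673. No siFLI1 library overlapped a siNeg library, and COL3A1 rose by 3.99 ± 0.042, 5.28 ± 0.050 and 3.40 ± 0.044 on the log2 scale (adjusted p 2.6e-28, 1.6e-34 and 1.4e-18, edgeR). The rise was larger in TC-71 than in A673, with a difference of A673 minus TC-71 of -1.92 ± 0.061 log2 units (adjusted p 2.8e-23, edgeR interaction).

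The chains of type V collagen, which regulates how thick type I fibrils grow, rose as well. COL5A1 had 327, 311 and 329.9 CPM with siNeg and 3424, 4003 and 3685 CPM with siFLI1 in TC-32, 21.1, 20.8 and 24.4 CPM with siNeg and 542, 567 and 541 CPM with siFLI1 in TC-71 and 197, 191 and 197 CPM with siNeg and 807, 936 and 849 CPM with siFLI1 in A673. It rose by 3.52 ± 0.051, 4.63 ± 0.056 and 2.15 ± 0.047 on the log2 scale (adjusted p 6.5e-23, 6.1e-32 and 6.4e-16, edgeR). The rise was largest in TC-71, where it started lowest, with differences of -1.12 ± 0.083 for TC-32 minus TC-71 and -2.51 ± 0.082 for A673 minus TC-71 (adjusted p 2.6e-12 and 2.8e-20, edgeR interaction). COL5A3, the less common chain, had 8.88, 8.44 and 9.34 CPM with siNeg and 179.9, 225 and 203 CPM with siFLI1 in TC-32, 17.4, 18.4 and 18.7 CPM with siNeg and 579.9, 584 and 587 CPM with siFLI1 in TC-71 and 50.9, 50.2 and 48.5 CPM with siNeg and 243, 298 and 267 CPM with siFLI1 in A673. COL5A3 rose by 4.52 ± 0.086, 5.01 ± 0.052 and 2.43 ± 0.060 (adjusted p 2.0e-18, 9.1e-34 and 2.8e-15, edgeR), and 3.98% of its exon bases lie opposite the gene ENSG00000267650. COL5A2, named after its values were seen and next to COL3A1 on chromosome 2 (chr2:189031898-189225312), rose by 3.31, 3.10 and 1.77 from siNeg means of 86.6, 253 and 399.5 CPM. For none of these 3 genes did siNeg and siFLI1 libraries overlap in any line.

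COL11A1, a chain of type XI collagen and named after its values were seen, behaved differently between the lines. In TC-32 it was already present, with 224, 229.99 and 226 CPM with siNeg and 385, 391 and 386 CPM with siFLI1, and rose by only 0.77 ± 0.039 on the log2 scale (adjusted p 2.9e-15, edgeR). In TC-71 it went from 1, 1 and 4 counts to 281, 321 and 460 counts (log2 fold change 7.17 ± 0.24, adjusted p 2.4e-21), and in A673 from 0.832, 1.02 and 0.995 CPM to 103, 113 and 107 CPM (log2 fold change 6.82 ± 0.072, adjusted p 1.5e-19). The change in TC-32 was smaller than in A673 by a difference of -6.02 ± 0.081 log2 units (adjusted p 3.8e-34, edgeR interaction). With siFLI1 the level in TC-32 was still the highest of the 3 lines. The remaining fibrillar genes were lower: COL11A2 and COL24A1 rose in every line, by 0.67 to 4.24 log2 units, and reached no more than 27.2 CPM in any library.

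COL27A1, a fibrillar collagen of cartilage, changed little and in different directions. It had 65.0, 64.8 and 69.8 CPM with siNeg and 88.7, 101 and 96.6 CPM with siFLI1 in TC-32, 6.50, 7.05 and 7.08 CPM with siNeg and 4.46, 5.78 and 6.03 CPM with siFLI1 in TC-71 and 26.3, 25.4 and 25.2 CPM with siNeg and 30.9, 34.5 and 31.8 CPM with siFLI1 in A673. It rose by 0.52 ± 0.055 in TC-32 and 0.34 ± 0.049 in A673 and fell in TC-71, with log2 fold change -0.33 ± 0.12 (adjusted p 4.8e-09, 1.5e-05 and 0.0186, edgeR). The TC-71 call was lost without siFLI1 replicate 1, where the change was -0.21 (adjusted p 0.127). Between TC-32 and A673 the difference of 0.21 ± 0.082 (adjusted p 0.0245) lost its call in a fit of these lines alone (0.14, adjusted p 0.100) and without any one of TC-32 siNeg replicates 1 and 2, TC-32 siFLI1 replicate 2, A673 siNeg replicate 1 and A673 siFLI1 replicates 1 and 3 (adjusted p 0.0552 to 0.0707). The effect differed between TC-32 and TC-71 by 0.84 ± 0.12 log2 units (adjusted p 4.0e-07, edgeR interaction).

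**Figure D3:**
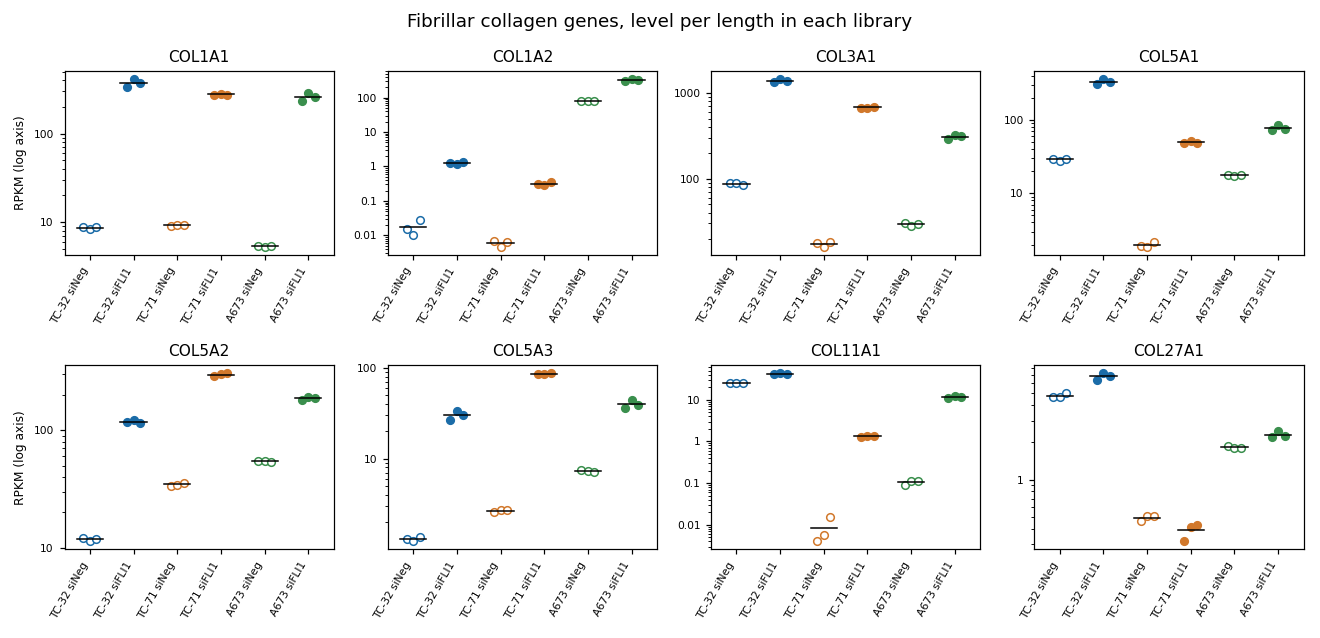
RPKM (log axis) of 8 fibrillar collagen genes in each of the 18 libraries, open circles for siNeg, filled for siFLI1, bars for group means. COL1A2 is at 0.0272 RPKM or less in the siNeg libraries of TC-32 and TC-71 and near 80.1 RPKM in A673, while COL1A1 rises from under 10 to between 235 and 413 RPKM in all 3 lines, and COL27A1 moves little.

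The ratio of COL1A1 to COL1A2 transcripts, per length and within each library, showed how unequal the type I chains were. It was 562 ± 237 (SD, n = 3) with siNeg and 301 ± 46.1 with siFLI1 in TC-32, and 1574 ± 361 and 887 ± 90.5 in TC-71, and the control values of these lines rest on 1 to 7 COL1A2 counts per library. In A673 it was 0.0664 ± 7.84e-04 with siNeg and 0.798 ± 0.0352 with siFLI1. Thus COL1A1 exceeded COL1A2 by 266 to 972 times in the siFLI1 libraries of TC-32 and TC-71, and was the lesser transcript in every A673 library. COL5A1 exceeded COL5A2 in TC-32 (2.44 ± 0.0323 and 2.82 ± 0.169) and was below it in TC-71 (0.0572 ± 0.00361 and 0.166 ± 0.00580) and A673 (0.320 ± 0.00724 and 0.415 ± 0.0221). COL3A1 over COL1A1 went from 10.1 ± 0.560 to 3.69 ± 0.239 in TC-32 and from 5.49 ± 0.0944 to 1.19 ± 0.0563 in A673, and from 1.89 ± 0.139 to 2.44 ± 0.0645 in TC-71. With longest-transcript lengths the A673 siFLI1 value was 0.958 ± 0.0455, a mean below 1 but within 1 SD of it, and the direction of each change was kept. These ratios describe transcripts and were not tested.

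**Figure D4:**
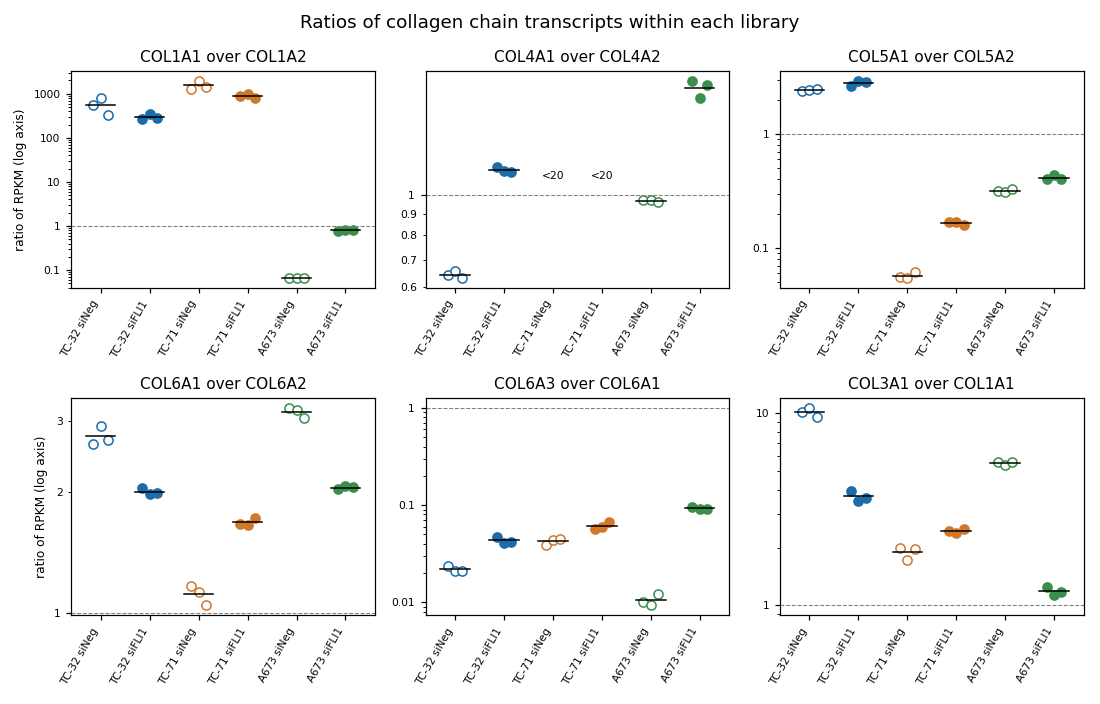
Ratio of RPKM (log axis) of 6 pairs of collagen genes in each library, open circles for siNeg, filled for siFLI1, bars for group means and a dashed line at 1; TC-71 is not drawn for COL4A1 over COL4A2, where the libraries hold under 20 counts of both. COL1A1 over COL1A2 lies far above 1 in TC-32 and TC-71 and below 1 in A673, and COL4A1 over COL4A2 is higher with siFLI1 in both lines drawn.

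The 6 type IV genes of basement membranes lie in 3 head-to-head pairs, and the pairs behaved differently. COL4A1 and COL4A2, whose chains form the type IV collagen found in nearly all basement membranes, rose in TC-32 and A673 and were at the floor of detection in TC-71. COL4A1 had 103, 98.1 and 104 CPM with siNeg and 751, 836 and 768 CPM with siFLI1 in TC-32 and 183, 177 and 175 CPM with siNeg and 804, 872 and 846 CPM with siFLI1 in A673. COL4A2 had 212, 197 and 217 CPM with siNeg and 844, 958 and 886 CPM with siFLI1 in TC-32 and 246.9, 239 and 238 CPM with siNeg and 559, 667 and 602 CPM with siFLI1 in A673. Without overlap between the siRNAs, COL4A1 rose by 2.95 ± 0.047 and 2.24 ± 0.039 (adjusted p 4.8e-25 and 3.9e-17, edgeR) and COL4A2 by 2.10 ± 0.048 and 1.34 ± 0.051 on the log2 scale (adjusted p 6.4e-21 and 7.3e-13). In TC-71, COL4A1 had 0, 0 and 0 counts with siNeg and 0, 1 and 0 counts with siFLI1 and COL4A2 1, 0 and 5 counts with siNeg and 0, 1 and 3 counts with siFLI1, so no change was detectable at this depth, where 3 counts are 0.0806 to 0.152 CPM. COL4A1 over COL4A2 per length went from 0.643 ± 0.0125 to 1.15 ± 0.0152 in TC-32 and from 0.971 ± 0.00517 to 1.82 ± 0.0888 in A673 (SD, n = 3), and with longest-transcript lengths from 0.482 to 0.864 and from 0.728 to 1.36.

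The start sites of COL4A1 (minus strand) and COL4A2 (plus strand) in RefSeq are 127 bases apart on chromosome 13. The 126 bases between them are printed on the plus strand because these genes rose together in TC-32 and A673, and 26 of the bases are annotated as exon in GENCODE 44. Capitals mark the TATA motif TATAAA, the CCAAT box and the GC box GGGCGG, searched on both strands.

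COL4A1 to COL4A2 (chr13:110307158-110307283, GRCh38.p14): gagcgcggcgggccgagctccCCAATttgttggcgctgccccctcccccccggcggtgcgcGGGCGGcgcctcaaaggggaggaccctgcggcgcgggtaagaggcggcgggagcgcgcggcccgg

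The stretch held 1 CCAAT box, 1 GC box and 0 TATA motifs.

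COL4A3 and COL4A4, chains of the specialised type IV collagen of kidney and lung whose start sites are 419 bases apart on chromosome 2, moved the other way in TC-32. COL4A3 had 33, 29 and 29 counts with siNeg and 5, 19 and 11 counts with siFLI1 in TC-32 and 18, 20 and 16 counts with siNeg and 36, 47 and 68 counts with siFLI1 in TC-71. COL4A4 had 66, 54 and 43 counts with siNeg and 32, 53 and 34 counts with siFLI1 in TC-32 and 25, 33 and 42 counts with siNeg and 98, 125 and 165 counts with siFLI1 in TC-71. Both fell in TC-32, with log2 fold changes of -1.65 ± 0.34 and -0.73 ± 0.23 (adjusted p 1.0e-04 and 0.00569, edgeR), and rose in TC-71, by 1.24 ± 0.27 and 1.73 ± 0.19 (adjusted p 1.3e-04 and 1.6e-09). The libraries overlapped for neither gene in TC-71, and both genes were scarce, at no more than 4.78 CPM. The COL4A4 call in TC-32 was lost without siNeg replicate 1 (log2 fold change -0.55, adjusted p 0.0547), and 6.82% of the exon bases of COL4A3 lie opposite MFF-DT. The effects differed between TC-32 and TC-71 by -2.90 ± 0.49 and -2.46 ± 0.31 log2 units (adjusted p 4.8e-06 and 1.7e-08, edgeR interaction). In A673 COL4A3 had at most 4 counts and COL4A4 was not called (log2 fold change 0.56 ± 0.35, adjusted p 0.158).

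The pair on the X chromosome, COL4A5 and COL4A6, has start sites 380 bases apart, or 1416 for a second COL4A6 start. In TC-32 and TC-71 these genes did not move together. COL4A5 rose in all lines, by 3.35 ± 0.098, 0.73 ± 0.067 and 1.02 ± 0.12 on the log2 scale (adjusted p 4.7e-20, 6.2e-11 and 1.8e-06, edgeR). COL4A6 was not called in TC-32, at 6.66, 6.14 and 5.01 CPM with siNeg and 5.10, 4.78 and 6.36 CPM with siFLI1, and fell in TC-71 from 20, 16 and 20 to 10, 4 and 10 counts (log2 fold change -1.43 ± 0.39, adjusted p 0.00186). In A673 COL4A6 did not pass the filter on low counts. In the model of all lines the effect of TC-32 minus A673 on COL4A6 was fitted at -2.64 log2 units (adjusted p 0.0131, edgeR interaction). That value rests on few counts in A673, so no direction of change is read for COL4A6 there. COL4A5 and COL4A6 were named after their values were seen.

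The 3 main chains of type VI collagen, which links cells to the surrounding matrix, rose strongly in every line. COL6A1 (chr21:45981770-46005050) had 63.0, 60.8 and 60.8 CPM with siNeg and 903, 1102 and 984 CPM with siFLI1 in TC-32, 67.2, 67.7 and 66.5 CPM with siNeg and 486, 483 and 458 CPM with siFLI1 in TC-71 and 37.9, 36.2 and 38.3 CPM with siNeg and 188, 226 and 197 CPM with siFLI1 in A673. COL6A2 (chr21:46098112-46132848), its neighbour, had 23.1, 20.1 and 21.7 CPM with siNeg and 426, 537 and 477 CPM with siFLI1, 55.5, 57.8 and 61.3 CPM with siNeg and 281, 282 and 256 CPM with siFLI1, and 11.3, 10.9 and 12.1 CPM with siNeg and 89.1, 105 and 92.3 CPM with siFLI1, in the same order of lines. COL6A3, the longest chain, had 5.78, 4.90 and 4.97 CPM with siNeg and 165, 175 and 161 CPM with siFLI1 in TC-32, 10.1, 11.6 and 11.5 CPM with siNeg and 107, 110.4 and 119 CPM with siFLI1 in TC-71 and 1.47, 1.30 and 1.83 CPM with siNeg and 69.9, 80.9 and 69.4 CPM with siFLI1 in A673. The siRNA groups did not overlap for any of the 3 genes. On the log2 scale COL6A1 rose by 4.02 ± 0.066, 2.83 ± 0.045 and 2.44 ± 0.059, COL6A2 by 4.47 ± 0.096, 2.23 ± 0.051 and 3.06 ± 0.064, and COL6A3 by 5.00 ± 0.072, 3.35 ± 0.067 and 5.58 ± 0.093 (SE; largest adjusted p 1.4e-11, edgeR).

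COL6A1 and COL6A2 rose more in TC-32 than in A673, with differences of 1.60 ± 0.083 and 1.44 ± 0.11 log2 units, while COL6A3 rose more in A673, with -0.55 ± 0.14 (adjusted p 8.5e-16, 1.3e-10 and 0.00122, edgeR interaction). Per length, COL6A3 stayed far below COL6A1: the ratio was 0.0218 ± 0.00158 with siNeg and 0.0434 ± 0.00316 with siFLI1 in TC-32, 0.0424 ± 0.00312 and 0.0608 ± 0.00551 in TC-71, and 0.0105 ± 0.00158 and 0.0929 ± 0.00261 in A673 (SD, n = 3). With longest-transcript lengths it was 0.0338 and 0.0672 in TC-32, 0.0658 and 0.0944 in TC-71, and 0.0163 and 0.144 in A673. COL6A1 over COL6A2 lay at 2.00 ± 0.0362, 1.68 ± 0.0370 and 2.05 ± 0.0205 with siFLI1, a narrower range over the lines than the 2.75 ± 0.150, 1.11 ± 0.0618 and 3.16 ± 0.0955 with siNeg. COL6A6, a chain that can replace COL6A3 and here named after its values were seen, had 0 counts in every siNeg library. It had 70, 85 and 83 counts with siFLI1 in TC-32 and 34, 35 and 15 in A673, at least 22.3-fold and 9.33-fold higher against a floor of 3 counts per library, and 0, 0 and 3 in TC-71. The median log2 fold change of the tested type VI genes was 4.74, 2.83 and 4.32, or 4.48, 2.83 and 3.14 with COL6A6 at its bound.

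Among the FACIT genes 5 of 5 tested rose in TC-32, 8 of 9 in TC-71 and 6 of 8 in A673, beside 41.3%, 36.8% and 35.6% of all genes tested. COL12A1, a large collagen that coats type I fibrils, had 0.670, 0.377 and 0.505 CPM with siNeg and 8.05, 8.91 and 7.55 CPM with siFLI1 in TC-32, 0.594, 0.304 and 0.486 CPM with siNeg and 4.26, 4.70 and 5.12 CPM with siFLI1 in TC-71 and 26.1, 26.5 and 27.4 CPM with siNeg and 175, 171 and 168 CPM with siFLI1 in A673. It rose by 3.98 ± 0.19, 3.30 ± 0.22 and 2.69 ± 0.041 on the log2 scale with no overlap between siRNAs (adjusted p 1.3e-15, 4.3e-14 and 7.4e-18, edgeR), and it was far more abundant in A673. COL16A1, named after its values were seen, rose in TC-32 and TC-71, by 2.47 ± 0.066 and 2.68 ± 0.11, and was not called in A673 at 113, 109 and 113 CPM with siNeg and 98.1, 121 and 108 CPM with siFLI1 (log2 fold change -0.03 ± 0.057, adjusted p 0.615). The remaining tested FACIT genes rose wherever tested, apart from COL9A3 and COL21A1. COL9A1, a type IX chain named after its values were seen, went from 0, 2 and 0 to 33, 33 and 31 counts in TC-71, a ratio of summed counts of 41.4 with a 95% exact interval from 11.2 to 347.

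COL21A1, a FACIT collagen of vessel walls and other connective tissue, showed opposite changes. TC-32 had 0.209, 0.264 and 0.715 CPM with siNeg and 51.5, 46.8 and 51.8 CPM with siFLI1. TC-71 had 18.6, 18.4 and 18.5 CPM with siNeg and 32.1, 32.4 and 30.9 CPM with siFLI1, and A673 had 137, 143 and 145 CPM with siNeg and 35.9, 37.8 and 35.6 CPM with siFLI1. The siFLI1 libraries were all above the siNeg libraries in TC-32 and TC-71 and all below them in A673. COL21A1 rose in TC-32 (6.98 ± 0.16, log2 scale) and TC-71 (0.78 ± 0.068) and fell in A673 (-1.96 ± 0.042; adjusted p 3.1e-21, 2.0e-11 and 4.2e-16, edgeR). The effects in TC-32 and A673 differed by 8.98 ± 0.14 and those in A673 and TC-71 by -2.77 ± 0.087 log2 units (adjusted p 1.5e-32 and 1.3e-23, edgeR interaction). With siFLI1 the levels of the 3 lines, at 30.9 to 51.8 CPM, were much closer to each other than with siNeg, at 0.209 to 145 CPM.

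COL9A3, another type IX chain, had 21.1, 20.7 and 21.8 CPM with siNeg and 60.4, 76.5 and 66.0 CPM with siFLI1 in TC-32, 17.7, 19.8 and 21.5 CPM with siNeg and 17.7, 17.7 and 13.7 CPM with siFLI1 in TC-71 and 19.8, 20.5 and 22.9 CPM with siNeg and 39.3, 46.0 and 39.9 CPM with siFLI1 in A673. It rose in TC-32 and A673, by 1.68 ± 0.076 and 0.99 ± 0.065 on the log2 scale (adjusted p 4.1e-15 and 9.4e-10, edgeR). The call of a fall in TC-71 (log2 fold change -0.28 ± 0.095, adjusted p 0.0117) came with overlapping libraries. It was lost without siFLI1 replicate 3 (-0.15, adjusted p 0.149) or siNeg replicate 3 (-0.21, adjusted p 0.0632). Of its exon bases 3.2% lie opposite TCFL5.

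**Figure D5:**
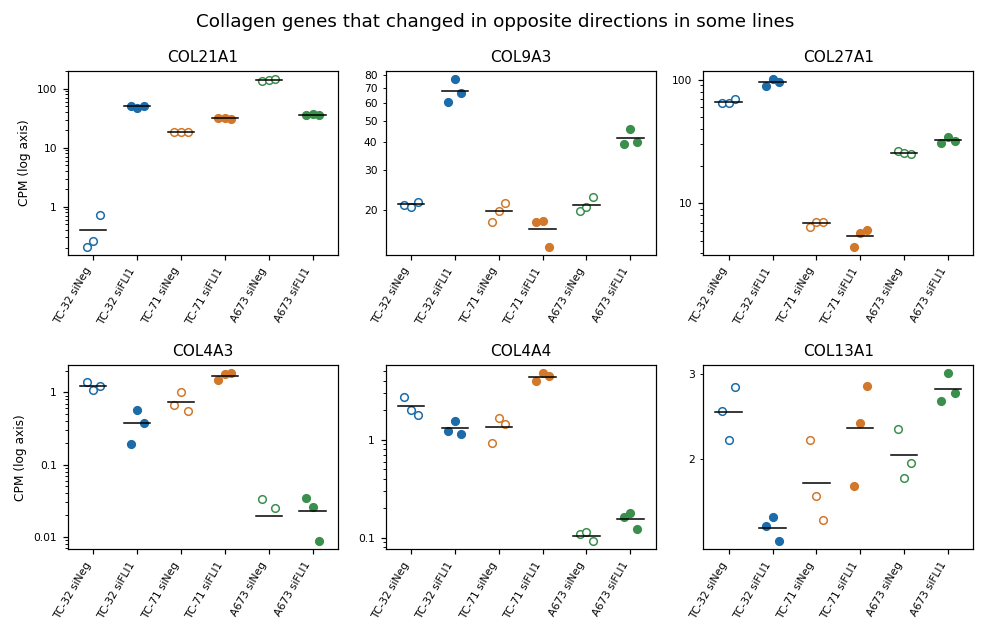
CPM (log axis) in each library of the 6 collagen genes called in opposite directions between lines, open circles for siNeg, filled for siFLI1, bars for group means. COL21A1 rises in TC-32 and TC-71 and falls in A673, while COL13A1 spans only 1.35 to 3.01 CPM; 1 A673 siNeg library with 0 counts of COL4A3 is not drawn.

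The short-chain collagens COL8A1 and COL8A2, whose products form hexagonal networks such as that of the cornea, rose in TC-32 and A673 and were scarce in TC-71. COL8A1 had 1.59, 1.55 and 2.36 CPM with siNeg and 31.0, 34.9 and 29.7 CPM with siFLI1 in TC-32 and 1.98, 2.09 and 2.26 CPM with siNeg and 35.5, 33.8 and 35.7 CPM with siFLI1 in A673. COL8A2 had 0.879, 1.32 and 1.14 CPM with siNeg and 27.7, 29.7 and 27.3 CPM with siFLI1 in TC-32 and 0.898, 0.803 and 0.961 CPM with siNeg and 10.4, 11.1 and 10.5 CPM with siFLI1 in A673. Their log2 fold changes were 4.13 ± 0.12 and 4.05 ± 0.063 for COL8A1 and 4.65 ± 0.12 and 3.59 ± 0.088 for COL8A2 (largest adjusted p 2.3e-15, edgeR), with no overlap. In TC-71, COL8A1 had 1, 2 and 0 counts with siNeg and 0, 1 and 2 counts with siFLI1 and COL8A2 1, 2 and 2 counts with siNeg and 7, 13 and 17 counts with siFLI1, a ratio for COL8A2 of 6.32 with a 95% exact interval from 2.48 to 20.6 for counting error only.

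COL18A1, a basement membrane collagen whose cleaved end is endostatin, had 50.04, 46.9 and 52.0 CPM with siNeg and 153, 182 and 167 CPM with siFLI1 in TC-32, 10.8, 12.5 and 12.9 CPM with siNeg and 27.0, 28.1 and 22.9 CPM with siFLI1 in TC-71 and 4.47, 4.54 and 5.08 CPM with siNeg and 29.3, 35.6 and 32.7 CPM with siFLI1 in A673. It rose by 1.75 ± 0.060, 1.10 ± 0.089 and 2.79 ± 0.075 on the log2 scale (largest adjusted p 5.0e-12, edgeR), while 18.5% of its exon bases lie opposite SLC19A1, and the strand setting of the counting was not given in the sources used here. COL7A1, which forms the anchoring fibrils that tie epithelium to dermis, had 8.08, 8.89 and 9.76 CPM with siNeg and 282, 352 and 311 CPM with siFLI1 in TC-32, 30.5, 32.5 and 34.1 CPM with siNeg and 69.3, 66.7 and 70.3 CPM with siFLI1 in TC-71 and 17.0, 15.8 and 16.1 CPM with siNeg and 58.4, 74.3 and 60.7 CPM with siFLI1 in A673. It rose by 5.14 ± 0.095, 1.09 ± 0.058 and 1.98 ± 0.077 (largest adjusted p 8.8e-12, edgeR), and the rise in TC-32 exceeded that in A673 by 3.18 ± 0.13 and that in TC-71 by 4.05 ± 0.14 log2 units (adjusted p 9.5e-15 and 6.8e-16, edgeR interaction). The transmembrane collagen COL13A1, of focal adhesions and the neuromuscular junction, had 2.51, 2.19 and 2.82 CPM with siNeg and 1.46, 1.51 and 1.35 CPM with siFLI1 in TC-32, 2.19, 1.67 and 1.49 CPM with siNeg and 1.76, 2.37 and 2.83 CPM with siFLI1 in TC-71 and 2.31, 1.83 and 1.96 CPM with siNeg and 2.64, 3.01 and 2.74 CPM with siFLI1 in A673. It fell in TC-32 (-0.79 ± 0.21, adjusted p 0.00115), rose in A673 (0.46 ± 0.11, adjusted p 0.00126) and was not called in TC-71 (0.40 ± 0.21, adjusted p 0.0840).

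The other members rose where tested, apart from COL28A1 in A673. On the log2 scale COL15A1 rose in TC-32 and A673, by 2.82 and 1.95, and COL17A1, of hemidesmosomes, in A673, by 3.86. COL25A1, a transmembrane collagen of neurons, rose by 3.07, 2.26 and 0.68. COL26A1 had 0.712, 0.942 and 0.547 CPM with siNeg and 14.5, 17.1 and 14.3 CPM with siFLI1 in TC-32 and 0.449, 0.541 and 0.624 CPM with siNeg and 8.18, 9.56 and 9.15 CPM with siFLI1 in A673 and rose by 4.36 ± 0.16 and 4.06 ± 0.11 (adjusted p 3.6e-18 and 1.3e-14, edgeR). Its rise in TC-71, 0.97 ± 0.37 from 9, 8 and 9 to 18, 14 and 28 counts, lost its call with DESeq2 (adjusted p 0.0806). COL28A1 rose in TC-32 by 2.91 and was not called in A673. Among the remaining FACIT genes, COL14A1 rose in TC-71 and A673 by 5.14 and 2.66, COL19A1 by 1.17 and 2.99, COL9A2 in every line by 2.31, 0.31 and 0.59, and COL20A1 in TC-71 by 2.02. These genes were named after their values were seen.

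Promoter sequences from RefSeq (GRCh38.p14) matched 32 of the 44 genes, with 44 entries of 300 bases. COL1A1, COL1A2, COL2A1, COL3A1, COL5A2, COL6A1, COL6A5, COL8A1, COL9A3, COL14A1, COL20A1 and COL22A1 had no entry. The motif shares below therefore leave out several of the most abundant collagen genes. The motif GGAA, the core that ETS factors bind, was found on either strand in 95.5% of the collagen entries and in 95.5% of all 35116 promoters. Its tandem form GGAAGGAA, which EWSR1::FLI1 is known to bind in longer repeats, was found in 0 of the 44 collagen entries and in 3.67% of all promoters, a difference that was not tested. TATAAA was in 18.2% of the collagen entries and 11.5% of all, CCAAT in 31.8% and 34.6%, and GGGCGG, the box bound by SP1, in 54.5% and 45% (GGAAGGAA contains GGAA). Matches describe these windows and are not binding sites. The 250 bases before the start site are printed for 5 of the genes that rose in every line and had 0 bases annotated as exon in GENCODE 44 there. They run 5′ to 3′ on the gene's strand. Capitals mark the TATA motif, the CCAAT box and the GC box on either strand.

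COL5A1 (+ strand, chr9:134641553-134641802): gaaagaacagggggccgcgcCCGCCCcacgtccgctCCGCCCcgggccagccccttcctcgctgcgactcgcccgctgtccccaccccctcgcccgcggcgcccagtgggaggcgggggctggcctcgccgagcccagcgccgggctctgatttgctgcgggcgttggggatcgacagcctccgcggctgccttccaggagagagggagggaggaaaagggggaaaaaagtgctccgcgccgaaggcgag

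COL5A3 (- strand, chr19:10010505-10010754): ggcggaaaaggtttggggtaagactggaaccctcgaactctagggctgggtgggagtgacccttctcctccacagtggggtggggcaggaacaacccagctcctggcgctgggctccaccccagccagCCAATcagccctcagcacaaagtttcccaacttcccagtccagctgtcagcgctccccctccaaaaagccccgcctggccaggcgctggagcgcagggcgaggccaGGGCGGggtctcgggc

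COL6A2 (+ strand, chr21:46097862-46098111): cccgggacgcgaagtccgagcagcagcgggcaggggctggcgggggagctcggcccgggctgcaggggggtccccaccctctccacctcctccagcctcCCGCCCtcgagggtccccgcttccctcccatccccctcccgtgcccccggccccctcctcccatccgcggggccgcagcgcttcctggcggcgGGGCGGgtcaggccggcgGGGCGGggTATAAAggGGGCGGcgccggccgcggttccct

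COL7A1 (- strand, chr3:48595330-48595579): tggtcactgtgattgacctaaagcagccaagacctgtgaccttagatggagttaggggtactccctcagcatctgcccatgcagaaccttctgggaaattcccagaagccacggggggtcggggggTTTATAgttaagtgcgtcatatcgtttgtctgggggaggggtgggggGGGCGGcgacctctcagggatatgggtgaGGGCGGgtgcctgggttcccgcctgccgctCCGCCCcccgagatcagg

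COL11A1 (- strand, chr1:103108523-103108772): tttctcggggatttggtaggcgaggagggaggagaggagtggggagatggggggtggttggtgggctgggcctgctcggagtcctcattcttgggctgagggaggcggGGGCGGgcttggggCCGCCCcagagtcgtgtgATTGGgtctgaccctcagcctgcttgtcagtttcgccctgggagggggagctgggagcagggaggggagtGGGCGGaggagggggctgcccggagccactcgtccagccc

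The TATA motif occurred 1 time each in COL6A2 and COL7A1, the CCAAT box 1 time each in COL5A3 and COL11A1, and the GC box in all 5, with 2, 1, 4, 3 and 3 copies in the order printed. COL4A5 and COL26A1 met the same conditions but were not printed, and their windows held 0 GC boxes. Windows of COL11A2 and COL18A1 with 0 exon bases were not printed either and held GC boxes. The GC box in all 5 thus describes the printed windows only.

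Genes that make, process or bind collagen were read from a list of 43. Of those tested, 34 of 39 rose and 0 fell in TC-32, 32 of 40 rose and 5 fell in TC-71, and 36 of 41 rose and 1 fell in A673, beside 41.3%, 36.8% and 35.6% higher and 40.1%, 35% and 35.4% lower among all genes. The medians were 1.05, 0.96 and 0.67 on the log2 scale. The 26 that rose in all 3 lines were 66.7% of the 39 tested in all, beside 18.9% of all genes, and 11 rose at least 2-fold in each line (28.2%, beside 5%). LAIR1 and GP6, receptors of blood cells, were tested in no line.

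Of the 15 genes of chain hydroxylation and glycosylation, 15, 12 and 15 rose in TC-32, TC-71 and A673 (all genes 41.3%, 36.8% and 35.6%), most by less than 2-fold. P4HA2 and P4HA3, catalytic subunits of prolyl 4-hydroxylase, which stabilises the triple helix, rose by 3.47, 1.64 and 2.86 and by 2.09, 2.78 and 3.19. P3H2, which hydroxylates proline at another position of the ring, rose by 3.57, 1.49 and 1.41. PLOD2, the lysyl hydroxylase of the telopeptides, rose by 2.02, 2.15 and 1.20. P3H3 and COLGALT1, a galactosyltransferase, rose in TC-32 and A673 and fell in TC-71 (-0.28 and -0.19 on the log2 scale), with differences between A673 and TC-71 of 0.76 ± 0.083 and 0.54 ± 0.061 (adjusted p 1.4e-09 and 3.6e-09, edgeR interaction).

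Folding and export was the group with the fewest calls: 4, 5 and 5 of 8 genes rose (50%, 62.5% and 62.5%, beside 41.3%, 36.8% and 35.6% of all genes) and 0, 1 and 0 fell. In either direction that was 50%, 75% and 62.5%, below the 81.4% and 71% of all genes in TC-32 and A673 and near the 71.9% in TC-71. CREB3L1, a membrane-bound transcription factor known to activate collagen genes in bone, stood apart within it. CREB3L1 had 0.628, 0.339 and 0.926 CPM with siNeg and 25.3, 30.2 and 27.4 CPM with siFLI1 in TC-32, 0.408, 0.101 and 0.312 CPM with siNeg and 15.0, 15.0 and 15.7 CPM with siFLI1 in TC-71 and 6.95, 6.85 and 7.48 CPM with siNeg and 86.4, 96.4 and 91.7 CPM with siFLI1 in A673. It rose by 5.47 ± 0.16, 5.69 ± 0.19 and 3.69 ± 0.056 on the log2 scale with no overlap (adjusted p 6.4e-19, 1.7e-21 and 7.2e-18, edgeR). MIA3, CTAGE5, KLHL12 and SEC23A, which serve the export of procollagen from the endoplasmic reticulum, had log2 fold changes between -0.31 and 0.48 over the lines and are named here after their values were seen.

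Of the 10 genes of procollagen processing and assembly, 8 of 8 tested rose in TC-32, 8 of 9 in TC-71 and 9 of 10 in A673 (all genes 41.3%, 36.8% and 35.6%). ADAMTS14, which removes the amino-terminal propeptide, rose by 8.04, 2.43 and 2.12 from 2, 5 and 3 counts in the TC-32 controls. BMP1, which removes the carboxy-terminal propeptide of fibrillar procollagens, rose by 2.48 ± 0.060, 2.77 ± 0.064 and 2.65 ± 0.054, with a difference of TC-32 minus TC-71 of -0.29 ± 0.092 (adjusted p 0.00721, edgeR interaction). SPARC, a collagen-binding matrix protein, rose by 1.77, 3.68 and 2.14. TLL1, a protease related to BMP1, rose in TC-32 (2.06 ± 0.14) and A673 (0.40 ± 0.049) and fell in TC-71 (-0.82 ± 0.14, adjusted p 8.5e-06, edgeR), and its effects in TC-32 and TC-71 differed by 2.87 ± 0.18 (adjusted p 2.2e-15, edgeR interaction).

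Of the 10 collagen receptors, 7 of 8 tested rose in each line, beside 41.3%, 36.8% and 35.6% of all genes in TC-32, TC-71 and A673. ITGA11, the integrin subunit of fibroblasts that binds fibrillar collagen, had 1.00, 1.13 and 1.30 CPM with siNeg and 58.6, 65.1 and 60.2 CPM with siFLI1 in TC-32 and 0.0998, 0.197 and 0.186 CPM with siNeg and 10.5, 11.2 and 10.8 CPM with siFLI1 in A673. In TC-71 it had 0, 0 and 0 counts with siNeg and 440, 489 and 766 counts with siFLI1, at least 156-fold higher against the floor of 3 counts per library. ITGA1 and its partner ITGB1 rose by 2.28, 2.41 and 2.04 and by 1.11, 1.16 and 1.28. ITGA2 rose from low levels in TC-32 (1.12 ± 0.41, adjusted p 0.0148, edgeR) and A673 (1.54 ± 0.41) and fell in TC-71 (-0.40 ± 0.087). The TC-32 call was lost with DESeq2 (adjusted p 0.0595) and without siNeg replicate 3 or siFLI1 replicate 1 (adjusted p 0.0894 and 0.0910). DDR2, a receptor tyrosine kinase for fibrillar collagen, rose in TC-32 (0.42 ± 0.044) and TC-71 (0.49 ± 0.046) and fell in A673 (-0.16 ± 0.037), and the effects in TC-32 and A673 differed by 0.61 ± 0.063 (adjusted p 2.2e-10, edgeR interaction).

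The size of the siFLI1 effect differed between lines for most collagen genes. Of the 39 collagen genes in a model of all 18 libraries, 29 (74.4%) differed when TC-32 was set against A673, beside 62.1% of all 19610 genes tested. For TC-32 against TC-71 there were 28 (71.8%, all genes 53.6%), and for A673 against TC-71 there were 27 (69.2%, all genes 51.6%). The filter of this model used all groups, so these counts and shares include genes that did not pass the filter in a line compared. Such genes were COL4A6 for TC-32 against A673, and COL4A2, COL8A1, COL8A2 and COL14A1 for TC-32 against TC-71. The log2 fold change was the higher one in TC-32 for 23 of the 39 against A673 (all genes 29.9%) and for 20 of the 39 against TC-71 (20.9%), and the lower one for 6 (32.2%) and 8 (32.7%). Between A673 and TC-71 it was higher in A673 for 13 (23.2%) and in TC-71 for 14 (28.4%). Called in opposite directions were 2, 4 and 3 collagen genes, beside 11.9%, 6.74% and 8.94% of all genes. The 3 comparisons share groups, and TC-71 was counted with a tool other than the one used for TC-32 and A673, so line and counting cannot be told apart in differences with TC-71. The medium differed between A673 and the other lines in the same way. The fall of FLI1 given above also differed between lines, being smallest in TC-32 and largest in A673, and the time for A673 was not given. The part of these in the differences between lines was not tested.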

How the data were processed

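RNA-seq gene tables of TC-32, TC-71 and A673 were analysed, 3 siNeg and 3 siFLI1 libraries each. Per the table names, the authors deposited RSEM expected counts for TC-32 and A673 and whole-number Subread counts for TC-71, none of them normalized. Per the submitters' processing notes, the tools were cutadapt 4.4, STAR 2.7.3, Subread 2.0.3 with featureCounts, and limma 3.38.3, on GRCh38. The strand setting was not given in the sources used here, and the libraries were stranded per the labels' protocols. Libraries held 19685354 to 37234528 counts in TC-32 and TC-71 and at least 114564479 in A673. Samples of ES-5838 and siERG were not analysed here, and the summed haematopoietic list is not reported here.

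Expected counts were rounded. Separate fits per line used edgeR 4.0.16 in R 4.3.3 (filterByExpr, TMM, robust quasi-likelihood F-test, two-sided) and p-values were adjusted over all tested genes by Benjamini-Hochberg, with calls at an adjusted p under 0.05. Differences between lines were interaction contrasts in 1 model of the 18 libraries. The SE of a log2 fold change was the absolute unshrunk coefficient divided by the square root of F. The printed log2 fold changes carry the prior count of edgeR, so at few counts the SE does not match them exactly. CPM are TMM-scaled, and RPKM divide them by union exon length in GENCODE 44, which matched 57754 of 58336 gene identifiers. On simulated counts with 200 genes changed 2-fold, 91.5% to 95% were recovered within lines, and 7.58% to 8.25% of calls were on unchanged genes. The changed genes were drawn only from those above a threshold of expected counts and were far fewer than the genes called here. These rates therefore do not cover genes of few counts or the many changes in these data. A count of 3 served as the floor, and exact intervals at 95% cover counting error only. Replicates of a group differed beyond sampling noise, so none was merged.

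The members, classes and lists were chosen with earlier results of these data known. Genes were named by this rule: a mean of at least 2 CPM in a group of the line, called and at least 2-fold changed in 1 direction in all lines where tested (2 lines or more), at most 4 per class, taken by the largest smallest absolute log2 fold change; and genes called in opposite directions in 2 lines with an interaction past the threshold. From the list of making and binding, those at least 2-fold changed in 1 direction in all 3 lines and those in opposite directions were named. All collagen genes outside the rule, marked so in the text or not, were named after their values were seen. Alternatives were RLE factors, library size alone, other filters, unrounded counts, DESeq2 1.42.0, limma-voom (limma 3.58.1), a replicate block, leaving out each library, a 2-fold threshold, pairs of lines alone, length scaling and longest-transcript lengths.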

Additional observations from a re-analysis of the deposited data

Results flagged for a closer look

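Effects of siFLI1 that differed between cell lines in the interaction test drew attention. The differences listed are of genes chosen by the naming rule and of COL1A2, COL5A2 and COL11A1. Only those tested in both lines that passed the test are listed. Other collagen genes also differed, some of them not tested in both lines, and are in the counts only. Between TC-32 and A673 the effect of siFLI1 differed for 29 collagen genes. The differences in log2 fold change, TC-32 minus A673, that were above 0 were COL21A1 8.98, COL1A2 4.15, COL7A1 3.18, COL5A3 2.11, COL6A1 1.60, COL5A2 1.57, COL6A2 1.44, COL5A1 1.40, COL12A1 1.33, COL8A2 1.10, COL4A2 0.79, COL4A1 0.73, COL9A3 0.72, COL3A1 0.61, COL27A1 0.21. Those below 0 were COL6A3 -0.55, COL18A1 -1.01, COL13A1 -1.22, COL4A4 -1.26, COL11A1 -6.02. Between TC-32 and TC-71 the effect of siFLI1 differed for 28 collagen genes. The differences in log2 fold change, TC-32 minus TC-71, that were above 0 were COL21A1 6.20, COL7A1 4.05, COL6A2 2.24, COL9A3 1.95, COL6A3 1.65, COL6A1 1.18, COL27A1 0.84, COL18A1 0.65, COL1A1 0.52, COL5A2 0.21. Those below 0 were COL5A3 -0.50, COL5A1 -1.12, COL13A1 -1.20, COL3A1 -1.30, COL4A4 -2.46, COL4A3 -2.90, COL11A1 -6.43. Between A673 and TC-71 the effect of siFLI1 differed for 27 collagen genes. The differences in log2 fold change, A673 minus TC-71, that were above 0 were COL6A3 2.20, COL18A1 1.66, COL9A3 1.24, COL7A1 0.86, COL6A2 0.80, COL1A1 0.67, COL27A1 0.62. Those below 0 were COL6A1 -0.42, COL12A1 -0.65, COL4A4 -1.21, COL5A2 -1.36, COL3A1 -1.92, COL5A1 -2.51, COL5A3 -2.61, COL21A1 -2.77, COL1A2 -3.64. In both comparisons with TC-32, COL11A1 had the lowest and COL21A1 the highest difference among these genes, and the counting tool differed between TC-71 and the other lines.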

How the results depend on the processing

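Collagen genes called higher stayed within 1.5 times of the reported counts under every alternative run. Called lower with a 2-fold change as well were 1 in TC-32 and 1 in TC-71, where 3 and 3 had been called. Called lower in A673 were 2 with library size alone and 2 without siFLI1 replicate 2, where 1 had been called and the range over left-out libraries was 1 to 2; the added gene was COL16A1 (adjusted p 0.0467 and 0.0359). Library size alone moved the median of all genes in A673 from -0.0066 to -0.11. Length scaling gave collagen shares of 0.0733% and 1.02% in TC-32, 0.0466% and 0.539% in TC-71 and 0.108% and 0.541% in A673, for siNeg and siFLI1. Longest-transcript lengths gave COL3A1 34.5% and 45.3% of collagen RPKM in TC-32, COL9A2 26.3% and COL3A1 40.4% in TC-71, and COL1A2 33.4% and 27.7% in A673; the lengths used cause these shifts.

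Within lines, 1406 of 1423 alternative values of collagen genes kept direction and side of the threshold, 9 lost a call, 4 gained one and 4 changed sign. COL26A1 in TC-71 lost its call with DESeq2 (adjusted p 0.0806) and in leave-one-out fits, COL13A1 in TC-71 gained one without siNeg replicate 1 or siFLI1 replicate 1. Uncalled changes that changed sign were COL28A1 in A673 (-0.24 to 0.088 in leave-one-out fits) and COL16A1 in A673 (0.043 without siFLI1 replicate 1). Between lines 2386 of 2429 values kept both, 28 lost a call, 8 gained one and 7 changed sign. The losses included COL27A1 between TC-32 and A673 in 7 fits and COL12A1 between A673 and TC-71 without TC-71 siNeg replicate 2 (-0.48, adjusted p 0.106). COL2A1 between TC-32 and A673 lost its call with no low-count filter, limma-voom, the pair of lines alone and several left-out libraries (adjusted p 0.0523 to 0.217, edgeR or limma-voom). COL9A2 between A673 and TC-71 lost its call with library size alone, the replicate block and several left-out libraries (adjusted p 0.0554 to 0.269, edgeR). The uncalled difference of COL13A1 between A673 and TC-71 became -0.038 with library size alone and -0.18 to 0.21 in leave-one-out fits, and that of COL8A1 between TC-32 and A673 -0.010 to 0.32. The cause was not tested. The labels name no shared culture or day for equal replicate numbers, so the numbers were not used as pairs. Deviations of same-numbered replicates correlated at -0.21 to 0.053 and those of differently numbered ones at -0.13 to 0.18. With 3 libraries per group these correlations cannot exclude pairing. With the replicate block 31, 27 and 33 collagen genes rose and 3, 3 and 1 fell, in the order TC-32, TC-71, A673, and 29, 28 and 26 differed between lines. Depth limits genes near 3 counts in TC-32 and TC-71, such as COL1A2 with siNeg. COL4A1 had 0 or 1 counts in each TC-71 library, and whether it is silent there was not tested.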
